A study of Mus musculus with 6 samples.

Results

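Injury to the renal tubule is usually read from a small set of transcripts, and 10 of them were followed here in mouse kidneys injured by ischemia and reperfusion (IRI), from *Ptpn6*+/mev mice and from their wild-type littermates. The genes were *Havcr1*, *Lcn2*, *Clu*, *Krt8*, *Krt18*, *Krt19*, *Krt20*, *Vim*, *Cd44* and *Sox9*. They were taken by symbol, as known markers of injured and dedifferentiating tubular epithelium, from a deposited table of 21367 genes, and each of the 10 matched 1 row. All 10 passed the filter on low counts, which left 13036 genes to test.

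When tubular epithelial cells are damaged, surviving cells lose polarity and transport function, switch on genes of a less specialised state, and then spread and divide to cover the bare basement membrane. *Havcr1* encodes KIM-1, a surface glycoprotein that is nearly absent from the healthy proximal tubule and is shed into urine after injury. *Lcn2* encodes the secreted siderophore-binding protein NGAL, made by distal tubule and collecting duct after injury and also stored in neutrophil granules. Keratins and vimentin are intermediate filament proteins of simple epithelium and of mesenchyme, and SOX9 is a transcription factor of tubule progenitors that is switched on again in repairing tubules.

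The groups were 3 *Ptpn6*+/mev mice and 3 wild-type littermates on a C57BL/6 background, with RNA taken from kidney tissue. Heterozygotes have 1 viable motheaten (mev) allele, a splice-site mutation of the gene for the phosphatase SHP-1, in every cell of the body and not in the tubule alone. The labels also call this genotype SHP1 knockdown. All 6 mice were 7 weeks old. In each mouse the right kidney was removed and the vessels of the left kidney were closed by a clamp for 34 min. The left kidney was collected 24 h later for RNA and, by the study's methods, also for histology, and the portion that gave the RNA is not stated. Each library came from an injured kidney. Uninjured kidneys were not analysed here, and the values compare genotypes within injury. The labels give each library as 1 numbered animal.

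Estimated counts summed to between 10271590 and 12361745 per library. Wild-type replicate 2 stood apart, with a TMM normalization factor of 0.929 against 0.994 to 1.03 in the other libraries, and it held the lowest FPKM of the 6 libraries for 42.7% of the tested genes. FPKM divides the fragments of a gene by its transcript length and by the size of the library, so levels of different genes can be compared. Where values of the 3 kidneys of a genotype are listed, they are in the order of replicates 1, 2 and 3. Markers of the nephron were abundant in every library, with an FPKM of at least 1628 for *Umod* of the thick ascending limb and at least 235 for *Ggt1* of the proximal tubule. The *Ptpn6* level was 13.4 ± 1.42 and 14.6 ± 3.38 FPKM in *Ptpn6*+/mev and wild-type mice (SD, n = 3 each), and since the allele is a point mutation this level does not check the genotype. In RNA of mixed kidney tissue, fewer cells of a type and less RNA per cell cannot be told apart.

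In edgeR's quasi-likelihood test none of the 10 markers differed between genotypes at an FDR under 0.05, against 0.138% of all tested genes. At an unadjusted p under 0.05, 3 were higher in *Ptpn6*+/mev mice, *Krt18*, *Krt8* and *Havcr1*, where 5.53% of all tested genes were higher at that level, and 0 lower, where the share over all genes was 6.71%. At the same FDR edgeR's exact test called 0 of the 10, where it called 1.21% of all tested genes higher and 1.78% lower, and limma on log2 FPKM called 0, against 0.169% of all genes. DESeq2 called 1, *Krt18*, as higher, where its shares over all genes were 1.09% higher and 1.88% lower. For 4 markers, those 3 and *Vim*, every *Ptpn6*+/mev kidney had a higher FPKM than every wild-type kidney, as did 14% of all tested genes. The reverse held for 0 markers and for 6.38% of all tested genes. The markers had a median log2 fold change, *Ptpn6*+/mev over wild-type, of 0.21, beside -0.0024 for the whole set of tested genes.

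Without wild-type replicate 2, the library that stood apart, the quasi-likelihood test called 2 of the 10 markers higher, *Krt20* and *Krt18*, and 0 lower, where 0.759% of all genes were called higher and 1.01% lower. edgeR's exact test without this library, a setting chosen after seeing the data, called 4 higher, *Havcr1*, *Krt8*, *Krt18* and *Krt20*, against 2.4% of all genes. The median log2 fold change of the markers was 0.36 in both. The quasi-likelihood test called 0 of the 10 when any other single library was left out, fits in which it called 0.00767% to 0.499% of all genes.

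**Figure D1:**
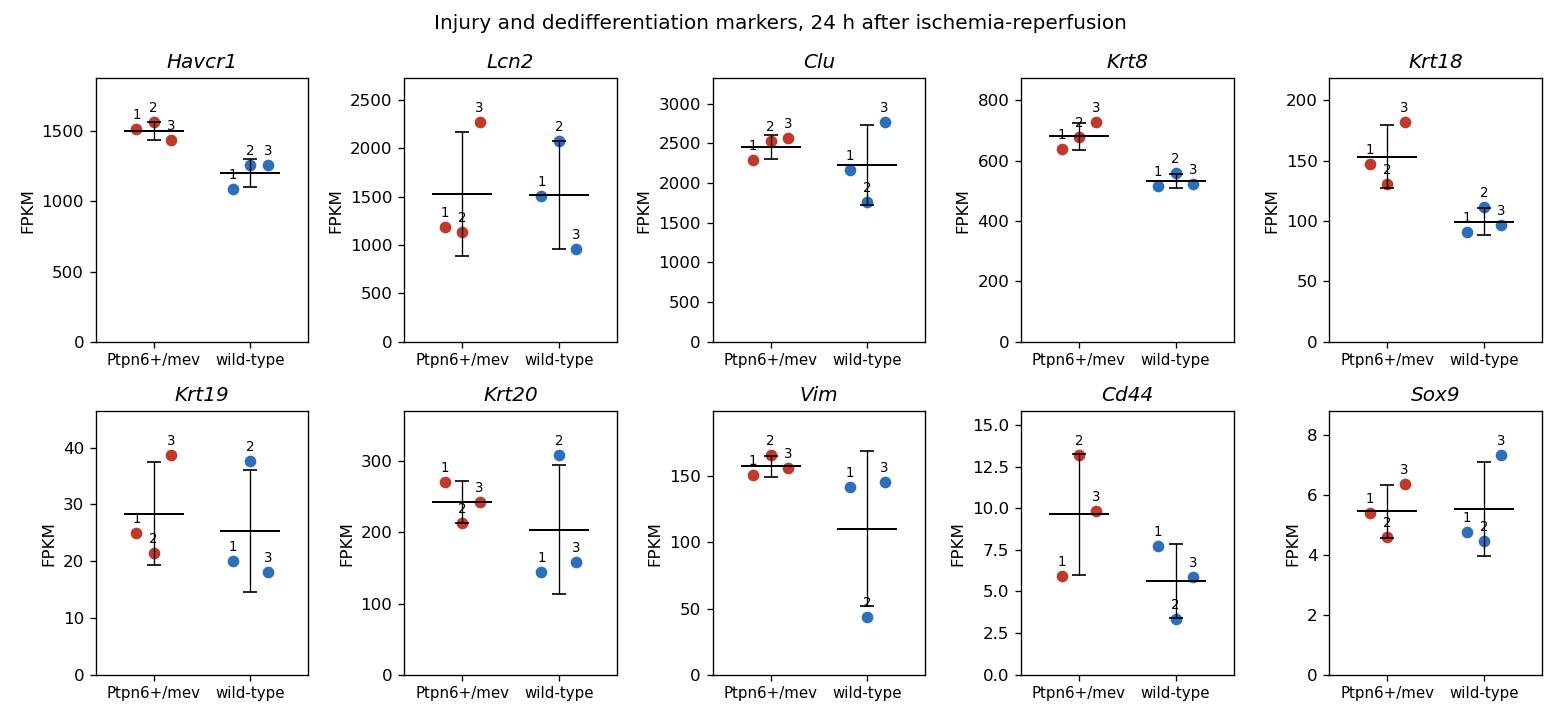
FPKM (y axis, from 0) of each marker in the 3 *Ptpn6*+/mev kidneys (red) and the 3 wild-type kidneys (blue), all 24 h after IRI. Points are kidneys with their replicate number, the horizontal line is the group mean and the bar is ± 1 SD. *Havcr1*, *Krt8*, *Krt18* and *Vim* do not overlap between the groups, and for *Vim* the wild-type mean of 110 is pulled down by replicate 2 at 43.2.

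Levels of the 10 genes lay far apart. *Clu* had a mean FPKM over the 6 kidneys of 2344 and ranked 8 among all genes of the table, *Lcn2* had 1522 (rank 22) and *Havcr1* 1354 (rank 26). *Krt8* had a mean of 607, *Krt20* 223, *Vim* 134, *Krt18* 126 and *Krt19* 26.8. *Cd44* and *Sox9* were the least abundant, with means of 7.64 and 5.49. In this order the ranges over kidneys overlapped between *Clu* and *Lcn2*, *Lcn2* and *Havcr1*, *Krt20* and *Vim*, *Vim* and *Krt18*, and *Cd44* and *Sox9*, and were apart between the other neighbours.

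*Havcr1*, on chromosome 11 from 46735080 to 46779578 of GRCm38, was high in every kidney and varied little. The *Ptpn6*+/mev kidneys had 1513, 1565 and 1436 FPKM, and the wild-type kidneys 1087, 1259 and 1262 FPKM. Every *Ptpn6*+/mev value was above every wild-type value, and the means, 1505 ± 64.6 and 1203 ± 100.3 FPKM (SD, n = 3 each), differed by more than the spread within either group. In edgeR's quasi-likelihood fit the log2 fold change was 0.27 (standard error, SE, 0.10, 95% interval 0.039 to 0.50, adjusted p = 0.325). Leaving out each library in turn moved it between 0.19 and 0.35, with an adjusted p from 0.0809 to 0.619.

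*Lcn2*, on chromosome 2 from 32384633 to 32388252, varied more widely within each genotype. Kidneys of *Ptpn6*+/mev mice had 1183, 1130 and 2269 FPKM, and the wild-type kidneys 1511, 2080 and 962 FPKM. The groups overlapped over most of their range, and the highest and lowest kidneys of 1 genotype differed 2.01-fold in *Ptpn6*+/mev and 2.16-fold in wild-type mice, against 1.09-fold and 1.16-fold for *Havcr1*. The means were 1527 ± 643 and 1517 ± 559 (SD, n = 3 each). By edgeR's quasi-likelihood fit the difference was -0.08 on the log2 scale (SE 0.35, adjusted p = 0.961), and its 95% interval of -0.88 to 0.73 leaves room for a change of 1.65-fold upward or to 0.543 of the wild-type level.

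The ratio of *Havcr1* to *Lcn2*, both in FPKM, was 1.28, 1.38 and 0.633 in the *Ptpn6*+/mev kidneys and 0.719, 0.605 and 1.31 in the wild-type kidneys. Kidneys of either genotype thus fell on both sides of equal levels. The neutrophil markers were low beside *Lcn2*. *S100a9*, the most abundant of the 10 listed, lay between 14.9 and 42.4 FPKM, and *S100a8*, the next, between 2.79 and 6.29 FPKM. The granule genes *Mpo*, *Elane*, *Ngp* and *Camp* and the surface marker *Ly6g* were listed at 0 in at least 1 library, and the other 5 of the 10 were detected in all 6. The summed neutrophil list was highest in *Ptpn6*+/mev replicate 2, at 58.5 FPKM, whose *Lcn2* was the second lowest of the 6. The part of neutrophils in the *Lcn2* values was not tested.

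*Clu*, which encodes the secreted chaperone clusterin and lies on chromosome 14 from 65968483 to 65981547, had the highest level of the 10. Levels in *Ptpn6*+/mev kidneys were 2284, 2527 and 2565 FPKM, and those in wild-type kidneys were 2164, 1758 and 2766 FPKM. The wild-type kidneys held both the highest and the lowest value. As a log2 fold change from edgeR's quasi-likelihood fit, the difference was 0.08 (SE 0.14, 95% interval -0.23 to 0.39, adjusted p = 0.879). Without wild-type replicate 2, the lowest kidney, it was -0.031.

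**Figure D2:**
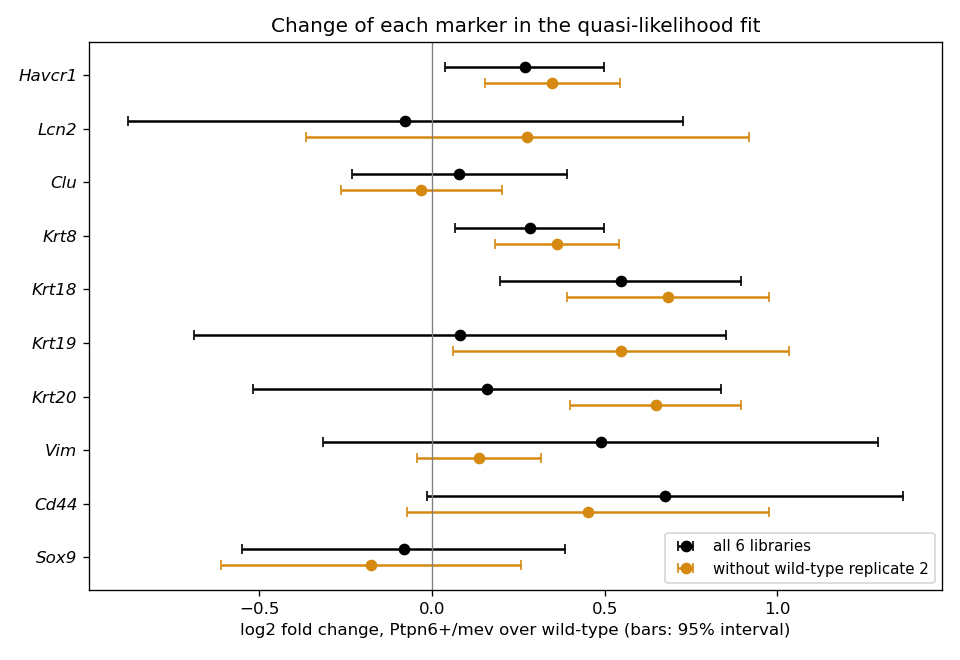
Log2 fold change of each marker, *Ptpn6*+/mev over wild-type (x axis), from edgeR's quasi-likelihood fit to all 6 libraries (black) and without wild-type replicate 2 (orange). Bars are 95% intervals and the grey line marks no difference. Leaving out that library moved *Krt20* from 0.16 to 0.65 and *Krt19* from 0.08 to 0.55, and moved *Vim* from 0.49 to 0.14.

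Among the keratins, *Krt8* (type II) and *Krt18* (type I) encode the partners of the filament found in all simple epithelia, while *Krt19* and *Krt20* are further type I keratins, the first typical of ducts and the second of urothelium and gut and known as a marker of injured proximal tubule. *Krt8* lies on chromosome 15 from 101996698 to 102004482 on the minus strand and *Krt18* on the same chromosome from 102028180 to 102032027 on the plus strand, so the paired genes are neighbours 23.7 kb apart. *Krt20* (99428403 to 99438150) and *Krt19* (100140810 to 100148665) lie 703 kb apart on chromosome 11, both on the minus strand.

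Promoter windows are shown for the neighbours *Krt8* and *Krt18*, whose groups did not overlap, and for *Krt20*, whose call depended on 1 kidney. The sequences are RefSeq's for GRCm38.p6, read in the direction of the gene and ending where the first annotated transcript starts in RefSeq or GENCODE. Capitals mark a TATA box (TATAAA).
Krt8 (chr15:102004483-102004592, minus strand): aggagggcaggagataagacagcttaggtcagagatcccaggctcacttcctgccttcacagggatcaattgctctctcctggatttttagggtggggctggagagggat
Krt18 (chr15:102027966-102028179, plus strand): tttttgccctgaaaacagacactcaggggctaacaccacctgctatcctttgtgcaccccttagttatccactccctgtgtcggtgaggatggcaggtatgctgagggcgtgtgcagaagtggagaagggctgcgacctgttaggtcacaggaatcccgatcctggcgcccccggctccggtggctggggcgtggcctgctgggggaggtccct
Krt20 (chr11:99438154-99438403, minus strand): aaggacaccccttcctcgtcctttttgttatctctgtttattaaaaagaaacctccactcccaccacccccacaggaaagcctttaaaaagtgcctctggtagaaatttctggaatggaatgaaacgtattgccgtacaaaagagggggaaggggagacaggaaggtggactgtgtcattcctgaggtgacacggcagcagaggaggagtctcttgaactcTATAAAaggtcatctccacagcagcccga
The RefSeq promoter table matched 7 of the 10 markers, with 3 starts for *Havcr1*. *Krt19*, *Clu* and *Sox9* had no entry. The 250 bases before the RefSeq starts lay wholly within the GENCODE gene for *Vim*, *Lcn2* and *Havcr1*, and partly within it for *Krt8* and *Krt18*. In the 250 bases before each of these 9 starts, TATAAA was found on either strand for *Krt20*, beginning 29 bases before the start, and for *Vim*, beginning 32 bases before it, and in 12.4% of all 32851 windows of the table. The GC box letters GGGCGG were found for *Lcn2* alone among the 9, and in 32.7% of all windows. The AP-1 letters TGANTCA and the STAT letters TTCNNNGAA, where N is any base, were found in none of the 9, and in 6.75% and 7.02% of all windows.

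*Krt8* was the steadiest of the keratins. The *Ptpn6*+/mev kidneys had 639, 679 and 727 FPKM, and the wild-type kidneys 516, 558 and 524 FPKM. No wild-type kidney reached the lowest *Ptpn6*+/mev kidney, and the means were 681 ± 44.5 and 533 ± 22.3 (SD, n = 3 each). In edgeR's quasi-likelihood fit the log2 fold change was 0.28 (SE 0.09, 95% interval 0.068 to 0.50, adjusted p = 0.273), and leaving out each library in turn moved it between 0.24 and 0.36.

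*Krt18* showed the lowest adjusted p of the 10 markers. Kidneys of *Ptpn6*+/mev mice had 147, 131 and 182 FPKM, and the wild-type kidneys 90.6, 112 and 96.6 FPKM. The groups were apart, with means of 153 ± 26.2 and 99.6 ± 10.9 (SD, n = 3 each). By edgeR's quasi-likelihood fit the difference was 0.55 on the log2 scale (SE 0.15, 95% interval 0.20 to 0.90, adjusted p = 0.196), or 1.46-fold. Other tools gave an adjusted p of 0.0607 (edgeR's exact test), 0.0487 (DESeq2) and 0.130 (limma, on log2 FPKM values). Leaving out each library in turn moved the log2 fold change between 0.41, without *Ptpn6*+/mev replicate 3, and 0.68, without wild-type replicate 2, with a quasi-likelihood adjusted p from edgeR of 0.583 and 0.0369.

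The FPKM of *Krt8* over that of its partner *Krt18* was 4.34, 5.20 and 4.00 in the *Ptpn6*+/mev kidneys and 5.70, 5.00 and 5.42 in the wild-type kidneys. The ratio was 4.51 ± 0.62 and 5.37 ± 0.35 (SD, n = 3 each), and *Ptpn6*+/mev replicate 2 lay within the wild-type range. Adding *Krt19* and *Krt20* to *Krt18* gave between 1.44 and 1.86 units of *Krt8* per unit of these type I keratins in *Ptpn6*+/mev mice and between 1.22 and 2.02 in wild-type mice, so the balance over all 4 keratins overlapped between the groups. *Krt20* was the largest of the 3 type I keratins in every kidney, at 52.4% to 61.1% of their summed FPKM in *Ptpn6*+/mev and 56.7% to 67.4% in wild-type mice.

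*Krt20* showed how much a single kidney can weigh. Levels in *Ptpn6*+/mev kidneys were 271, 213 and 242 FPKM, and those in wild-type kidneys were 145, 308 and 159 FPKM. Wild-type replicate 2 was the highest of all 6, and wild-type replicates 1 and 3 were the lowest. With all libraries the log2 fold change was 0.16 (SE 0.29, 95% interval -0.52 to 0.84, adjusted p = 0.892 by edgeR's quasi-likelihood test). Without wild-type replicate 2 it was 0.65 (SE 0.11, 95% interval 0.40 to 0.89, adjusted p = 0.0289), and without wild-type replicate 1 or 3 it was -0.041 and -0.014.

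*Krt19* was highest in the same kidneys as *Lcn2*, 1 of each genotype. The *Ptpn6*+/mev kidneys had 25.1, 21.4 and 38.7 FPKM, and the wild-type kidneys 20.1, 37.7 and 18.1 FPKM. The highest were *Ptpn6*+/mev replicate 3 and wild-type replicate 2, and the groups overlapped. As a log2 fold change from edgeR's quasi-likelihood fit, the difference was 0.08 (SE 0.33, 95% interval -0.69 to 0.85, adjusted p = 0.955), and it lay between -0.20 and 0.55 as libraries were left out.

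Those kidneys also had the highest summed level of the listed markers of urothelium, the lining of the renal pelvis, which expresses *Krt19* and *Krt20* as well. The 6 urothelial markers, *Upk1a*, *Upk1b*, *Upk2*, *Upk3a*, *Upk3b* and *Krt5*, summed to 7.06, 10.2 and 21.0 FPKM in the *Ptpn6*+/mev kidneys and to 12.8, 20.9 and 11.3 in the wild-type kidneys. They were the highest 2 for *Upk1b*, *Upk3a* and *Upk3b*, but for *Krt5* wild-type replicate 2, at 4.97 FPKM, lay below 3 other kidneys, and for *Upk1a* and *Upk2* wild-type replicate 1 lay above *Ptpn6*+/mev replicate 3. *Upk2* was listed at 0 in 1 library and the other 5 were present in all. *Aqp2*, a water channel of the collecting duct, was 173, 122 and 228 FPKM in the *Ptpn6*+/mev kidneys and 143, 431 and 135 in the wild-type kidneys, again highest in the same 2 kidneys. Of the 9 listed markers of distal nephron and collecting duct, 5 were highest in wild-type replicate 2. The list was mixed in *Ptpn6*+/mev replicate 3, and its genes other than *Umod* and *Aqp2* were named after their values were seen. *Slc12a3*, *Calb1* and *Atp6v1g3* were lowest in that kidney. *Umod* was highest there in FPKM, at 2556, but its count of 45803 lay below the 47351 of wild-type replicate 2. *Aqp3* and *Avpr2*, at 48.9 and 5.69 FPKM in *Ptpn6*+/mev replicate 3, lay below wild-type replicate 2 alone. *Slc12a1* and *Slc26a4* were neither highest nor lowest there. The part of pelvic or papillary tissue in the values of *Lcn2*, *Krt19* and *Krt20* was not tested.

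*Vim*, which encodes vimentin of mesenchymal, endothelial and immune cells and of dedifferentiated tubule cells, lies on chromosome 2 from 13573927 to 13582826. Kidneys of *Ptpn6*+/mev mice had 150, 166 and 156 FPKM, and the wild-type kidneys 142, 43.2 and 146 FPKM. The groups did not overlap, but wild-type replicates 1 and 3 lay just under the *Ptpn6*+/mev kidneys, and replicate 2 was far below all the other kidneys. In edgeR's quasi-likelihood fit the log2 fold change was 0.49 (SE 0.35, 95% interval -0.32 to 1.29, adjusted p = 0.644). Without wild-type replicate 2 it was 0.14 (SE 0.081, 95% interval -0.045 to 0.32, adjusted p = 0.428).

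*Cd44* encodes the surface receptor for hyaluronan, carried by leukocytes and by activated epithelium, and lies on chromosome 2 from 102811141 to 102901665. Levels in *Ptpn6*+/mev kidneys were 5.91, 13.2 and 9.82 FPKM, and those in wild-type kidneys were 7.73, 3.33 and 5.86 FPKM. *Ptpn6*+/mev replicate 1 lay inside the wild-type range, and the means were 9.64 ± 3.64 and 5.64 ± 2.21 (SD, n = 3 each). The log2 fold change of 0.67 was the largest of the 10 in the fit to all libraries (SE 0.30, 95% interval -0.015 to 1.36, adjusted p = 0.418 by edgeR's quasi-likelihood test). It was 0.45 without wild-type replicate 2, 0.45 without *Ptpn6*+/mev replicate 2 and 0.90 without *Ptpn6*+/mev replicate 1.

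Fibroblast, endothelial and macrophage markers moved with *Vim* and *Cd44* in the library that was lowest for both. All 7 fibroblast markers, among them *Col3a1* and *Col1a2*, and all 7 endothelial markers, among them *Plvap* and *Egfl7*, had their lowest FPKM in wild-type replicate 2. So did 9 of 10 macrophage markers, a list led by *Lyz2* and *Cd14*, beside 42.7% of all tested genes. *Cd14* was the exception and was highest there, at 60.2 FPKM against 34.3 to 49.4 in the other kidneys. Low values in wild-type replicate 2 were thus not limited to these cell types. The fibroblast list summed to 52.7 FPKM there, against 148 to 233 in *Ptpn6*+/mev mice and 252 and 254 in the other wild-type mice. The endothelial list summed to 122 there, against 273 to 299 in *Ptpn6*+/mev mice and 303 and 320 in the other wild-type mice. The macrophage list summed to 174 there and to between 211 and 329 elsewhere. No fibroblast, endothelial or macrophage marker was at 0 in any library. The other leukocyte lists did not have their lowest sum there. Of 10 neutrophil markers 4 were lowest in wild-type replicate 2. They were *Ly6g*, which was not tested, and *Csf3r*, *Cxcr2* and *Retnlg*, named after their values were seen. *Mpo*, *Elane* and *Camp* were at 0 there and in other libraries and are not among the 4. Only 5 of the 10 were tested, so the share over tested genes is not a like comparison. The neutrophil list summed to 26.4 FPKM in wild-type replicate 2 and to 25.1 in *Ptpn6*+/mev replicate 1. T cell markers, led by *Cd8a* and *Cd4*, summed to at most 1.61 FPKM, and none of the 6 passed the filter. The part of these cells in the values of *Vim* and *Cd44* was not tested.

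**Figure D3:**
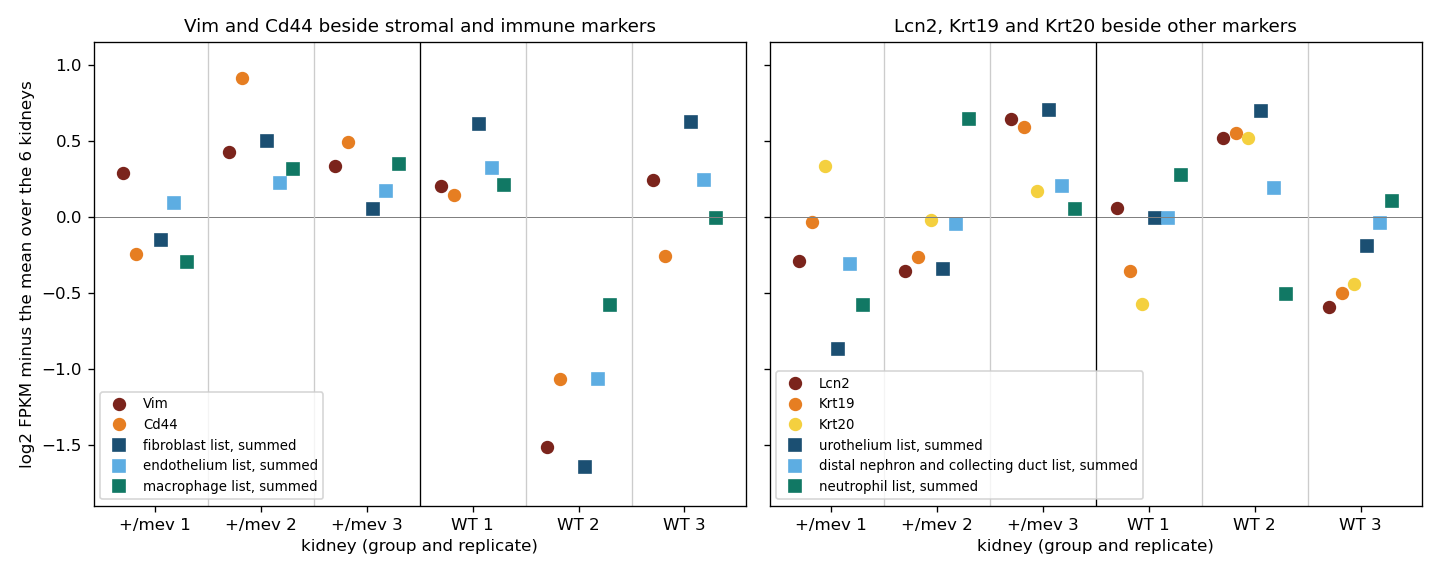
Log2 FPKM of single markers (circles) and of summed cell type lists (squares), each as the difference from its own mean over the 6 kidneys (y axis), by kidney (x axis). On the left, *Vim*, *Cd44* and the fibroblast, endothelial and macrophage sums are all lowest in wild-type replicate 2. On the right, *Lcn2*, *Krt19* and the urothelial sum are highest in *Ptpn6*+/mev replicate 3 and wild-type replicate 2, and the neutrophil sum is highest in *Ptpn6*+/mev replicate 2.

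*Sox9*, on chromosome 11 from 112782224 to 112787760, was the least abundant of the 10. The *Ptpn6*+/mev kidneys had 5.40, 4.61 and 6.38 FPKM, and the wild-type kidneys 4.76, 4.48 and 7.33 FPKM, from counts of 198 to 376 per library. The wild-type kidneys spanned the *Ptpn6*+/mev kidneys on both sides. By edgeR's quasi-likelihood fit the difference was -0.08 on the log2 scale (SE 0.20, 95% interval -0.55 to 0.39, adjusted p = 0.922), and leaving out each library in turn moved it between -0.21 and 0.15.

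Seen by kidney, no *Ptpn6*+/mev kidney held the lowest value of any marker. *Ptpn6*+/mev replicate 3 held the highest value of 4 markers and replicate 2 that of 3, while the highest of the other 3 were in wild-type replicates 2 and 3. Wild-type replicate 1 held the lowest value of 4 markers, replicate 2 that of 4 and replicate 3 that of 2. Over all tested genes wild-type replicate 2 held the lowest value for 42.7%. The shares of the other kidneys, and those of highest values, are not given here, so the counts have no full background. The median difference from the gene mean, on the log2 FPKM scale, was 0.04, 0.11 and 0.31 in the *Ptpn6*+/mev kidneys and -0.20, -0.12 and -0.23 in the wild-type kidneys. On that scale all tested genes also leaned to *Ptpn6*+/mev, with a median log2 fold change of 0.062 (limma, pseudocount 1). The markers did not share 1 pattern over kidneys: in wild-type replicate 2 *Lcn2*, *Krt19* and *Krt20* were each above their mean by 0.52 to 0.56, while *Vim* and *Cd44* were below it, at -1.51 and -1.07.

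**Figure D4:**
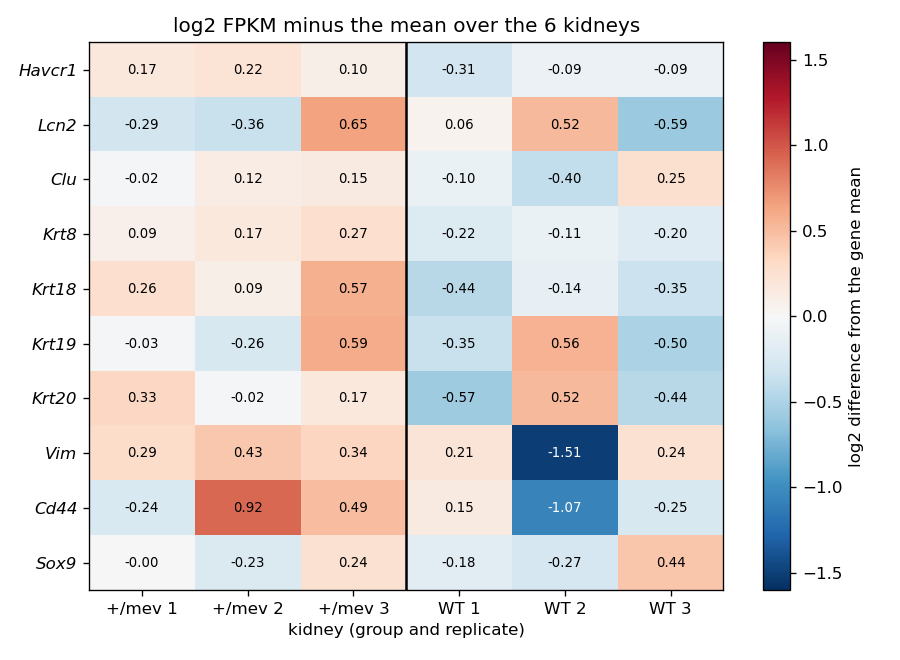
Difference of log2 FPKM from the marker's own mean over the 6 kidneys, with markers as rows and kidneys as columns (*Ptpn6*+/mev left of the line, wild-type right of it), and red above and blue below the mean. *Havcr1*, *Krt8* and *Krt18* are above their mean in all 3 *Ptpn6*+/mev kidneys and below it in all 3 wild-type kidneys, and the wild-type replicate 2 column runs from -1.51 for *Vim* to 0.56 for *Krt19*.

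Genes that work with these markers were listed by role, and of 48 listed partners 47 were in the table and 43 were tested. None passed an FDR of 0.05 in edgeR's quasi-likelihood test, and the median log2 fold change was 0.05. At an unadjusted p under 0.05, 2 of the 43 were higher and 5 lower, where 5.53% and 6.71% of all tested genes were. DESeq2, edgeR's exact test and limma also called 0 of them with all libraries. The quasi-likelihood test called 1 lower once wild-type replicate 2 was left out, where 1.01% of all genes were called lower. edgeR's exact test without that library, a setting chosen after seeing the data, called 2 lower and 0 higher. Its share of lower calls over all genes is not given here. Among the 7 tested keratins outside the 10 markers, the most abundant was *Krt7*, a duct keratin, with 69.8 ± 6.24 and 76.3 ± 19.7 FPKM (SD, n = 3 each). On log2 FPKM limma gave it a log2 fold change of -0.097. The count fit gave -0.27 (adjusted p = 0.642 by edgeR's quasi-likelihood test), which was -0.012 without wild-type replicate 2 and -0.45 without wild-type replicate 3. *Krt14* and *Krt4*, singled out after their values were seen, were the only ones of the 7 whose *Ptpn6*+/mev kidneys all lay above the wild-type kidneys, as did those of 14% of all tested genes, at log2 fold changes of 0.53 and 0.63 (adjusted p = 0.361 and 0.553 from the same test).

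Partners of other roles were described by their range. Log2 fold changes lay between -0.35 and 0.60 for the 6 tested plakins and desmosomal genes that anchor keratin, the most abundant being *Jup*, *Pkp2* and *Plec*. They lay between -0.18 and 0.56 for 5 further intermediate filament genes, led by *Lmna*, *Des* and *Lmnb1*, and between -0.10 and 0.36 for 8 *Sox* genes other than *Sox9*, led by *Sox18*, *Sox13* and *Sox17*. The 7 keratins, *Krt5* and *Krt80* among them, ranged from -0.27 to 0.63.

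Among the TIM family and the sheddases *Adam10* and *Adam17*, which release KIM-1 or related proteins from the cell surface, 4 genes were tested, with log2 fold changes from -0.71 to 0.29. *Timd2*, a relative of *Havcr1* in the TIM family, had 92.9 ± 14.5 and 125 ± 27.4 FPKM (SD, n = 3 each) and a log2 fold change of -0.71 (adjusted p = 0.421 by edgeR's quasi-likelihood test), which was -0.17 without wild-type replicate 2. That fold change is from counts, and on the log2 FPKM scale, to which the levels belong, limma gave -0.42. *Lrp2*, the gene for megalin, the receptor by which the proximal tubule takes up filtered proteins such as NGAL, had 26.8 ± 3.62 and 35.0 ± 7.98 FPKM (SD, n = 3 each). Its log2 fold change was -0.44 (adjusted p = 0.316 by edgeR's quasi-likelihood test, and 0.0392 to 0.710 as libraries were left out). Of the related receptors, *Vldlr* was at 19.5 ± 2.45 and 18.9 ± 3.56 FPKM and *Lrp8* at 4.83 ± 0.50 and 6.64 ± 2.12 FPKM (SD, n = 3 each). Their log2 fold changes were 0.017 and -0.56 (adjusted p = 0.976 and 0.247 from the same test), and that of *Lrp8* was -0.35 without wild-type replicate 3. The ERM proteins, which tie CD44 to actin, were led by *Ezr*, with 270 ± 15.9 and 266 ± 8.80 FPKM (SD, n = 3 each), closer than the spread between mice, and all 3, with *Msn* and *Rdx*, had log2 fold changes between -0.05 and 0.13. Of the genes that make or break down hyaluronan, the ligand of CD44, the most abundant was the hyaluronidase gene *Hyal2*, with 56.5 ± 0.74 and 61.7 ± 13.5 FPKM (SD, n = 3 each). On log2 FPKM limma gave it -0.10, and the count fit gave a log2 fold change of -0.22 (adjusted p = 0.340 by edgeR's quasi-likelihood test). *Tmem2* and *Hyal1*, which also break hyaluronan down, had log2 fold changes of 0.11 and -0.25 (adjusted p = 0.832 and 0.759 from the same test), which lay between 0.011 and 0.21 and between -0.43 and -0.068 as libraries were left out in turn. All 6 tested genes of this role ranged from -1.62 to 0.11 in log2 fold change. The lowest was *Cemip*, named after its values were seen (adjusted p = 0.298 by edgeR's quasi-likelihood test), with at most 0.36 FPKM in any kidney.

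Of 20 further genes known from injured or repairing tubules, none passed an FDR of 0.05 in edgeR's quasi-likelihood test, and their median log2 fold change was 0.01. At an unadjusted p under 0.05, 3 of the 20 were higher and 5 lower, beside 5.53% and 6.71% over all genes. With wild-type replicate 2 left out, the same test called 1 higher and 1 lower, where 0.759% of all genes were called higher and 1.01% lower. With wild-type replicate 1 left out it called 1 lower, where 0.069% of all genes were called in either direction. Without a filter on low counts, where 16516 genes were tested, the quasi-likelihood test called 1 higher, *Lgals3*, and 1 lower, *Fga*. Each had an adjusted p of 0.0448 in that test, against 0.0685 with the filter. The share of all genes called in that setting is not given here, so these calls have no background to be set against. edgeR's exact test and DESeq2 each called 2 of the 20 higher, *Lgals3* and *Vcam1*, and 3 lower, the fibrinogen chain genes *Fga*, *Fgb* and *Fgg*, all named here after their values were seen apart from *Lgals3*. Over all genes the exact test called 1.21% higher and 1.78% lower, and DESeq2 1.09% and 1.88%. *Lgals3*, which encodes the lectin galectin-3, had 767, 634 and 703 FPKM in the *Ptpn6*+/mev kidneys and 403, 414 and 475 in the wild-type kidneys. The groups were well apart, with a log2 fold change of 0.64 (SE 0.10, adjusted p = 0.0685 by edgeR's quasi-likelihood test, and 0.023 to 0.373 as libraries were left out in turn). *Spp1*, the gene for osteopontin and the most abundant of the 20, had a log2 fold change of -0.38 (adjusted p = 0.331 from the same test), or -0.21 without wild-type replicate 2, with 22933 ± 2357 and 28319 ± 4298 FPKM (SD, n = 3 each). *Vcam1*, an adhesion molecule gene, had a log2 fold change of 1.05, and *Fga*, *Fgb* and *Fgg* had -1.07, -0.94 and -0.90. *Tnfrsf12a*, the gene for the TWEAK receptor and among the 3 most abundant of the 20, had a log2 fold change of -0.035 in the count fit and 0.035 in limma on log2 FPKM. Genes of this list thus differed from each other in the sign of their log2 fold change.

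Of 14 proximal tubule markers 0 passed an FDR of 0.05 in edgeR's quasi-likelihood test. At an unadjusted p under 0.05, 8 were lower in *Ptpn6*+/mev mice and 0 higher, beside 6.71% and 5.53% of all tested genes. edgeR's exact test and DESeq2 each called 5 lower, beside 1.78% and 1.88% of all genes. The quasi-likelihood test also called 5 lower without wild-type replicate 2, beside 1.01% of all genes. It called 2 lower without wild-type replicate 3 and 1 lower without *Ptpn6*+/mev replicate 2. Those fits called 0.499% and 0.0921% of all genes in either direction. Without a filter on low counts it called 1 lower, and the share over all genes in that setting is not given here. The 14 markers had a median log2 fold change of -0.45. Summed without *Kap*, an androgen-responsive gene that reached 10201 FPKM in wild-type replicate 2 and was left out after its values were seen, the other 13 came to 1064 to 1273 FPKM in *Ptpn6*+/mev mice and 1319 to 1633 in wild-type mice, and with *Kap* the groups overlapped. The part of proximal tubule content in the values of *Havcr1*, *Krt8* and *Krt18* was not tested.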

How the data were processed

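The members and gene lists were chosen with earlier results of these data known. Poly-A RNA libraries of 6 kidneys were sequenced as read pairs. The authors removed adaptor and low-quality sequence, aligned reads to GRCm38.p5 with TopHat, and deposited FPKM values evaluated with Cufflinks. The authors also deposited estimated counts. The submitters' processing notes list RSEM without its role. Of 21367 genes 1744 had fractional counts, none of them a member, and counts were rounded before testing. Of the members, *Cd44* and *Sox9* had the lowest counts, 124 to 407 and 198 to 376 per library.

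Groups were compared on counts with edgeR 4.0.16 in R 4.3.3 (TMM, filterByExpr, quasi-likelihood F-test). The Benjamini-Hochberg adjustment ran over all 13036 tested genes. The code was tested on simulated data. Standard errors were the log2 fold change divided by the root of F. The paper's methods name the FDR of 0.05 but no test for counts. Replicates of 1 group differed by more than sampling noise (chi-square per degree of freedom 6.48 to 45.3). Alternatives were DESeq2 1.42.0, edgeR's exact test, limma 3.58.1 on log2 FPKM (pseudocount 1 or 0.1), other normalizations and filters, the replicate block, and each library left out. Positions come from GENCODE M21 (GRCm38). Figures used Python 3.11.15 and matplotlib 3.10.9. Named genes were the members, the 3 most abundant of each partner role and of the further injury genes, the 2 most abundant of each cell type list, any of these at an FDR under 0.05, and *Ptpn6*. Some of these are given by the range of their list. Exceptions are neutrophil markers at 0, the urothelial markers beyond *Krt5* and *Upk3a*, and genes said to be named after their values were seen. Symbols of 1 listed partner found no row. Values of 1 further marker list are not reported here.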

Additional observations from a re-analysis of the deposited data

How the results depend on the processing

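Of 160 values of the 10 markers under 16 alternative settings, 136 kept their sign and side of the threshold, 7 passed it and 17 turned sign. The number of markers called higher was 1 in DESeq2, 0 to 2 as single libraries were left out, and 4 in edgeR's exact test without wild-type replicate 2 (*Havcr1*, *Krt8*, *Krt18* and *Krt20*, a setting chosen after seeing the data, where 2.4% of all genes were called higher). The median log2 fold change was 0.12 to 0.36 as libraries were left out and 0.36 in that exact test. Among the markers, signs turned only for those near 0. With limma on log2 FPKM, *Lcn2* was 0.0021 and *Tnfrsf12a* 0.035 at either pseudocount, and *Sox9* was 0.0037 and 0.0072, a scale on which the median of all genes shifted from -0.0024 to 0.062 and 0.076. With libraries left out in turn, *Lcn2* ranged from -0.47 to 0.28, *Clu* from -0.031 to 0.24, *Krt19* from -0.20 to 0.55, *Krt20* from -0.041 to 0.65, *Sox9* from -0.21 to 0.15 and the receptor gene *Vldlr* from -0.091 to 0.11, and in the exact test without wild-type replicate 2 *Lcn2* was 0.28 and *Clu* -0.031. The cause was not tested. With the replicate block 0 markers were called, with a median of 0.27. Deviations of same-numbered kidneys from their group means correlated at -0.14, -0.18 and -0.13. Deviations from a mean of 3 kidneys offset each other, so these values cannot decide whether equal numbers mark a pair. The labels name no pairs. The block reduced the calls over all genes from 18 to 1. Precision is limited by 3 mice a group.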

Other observations

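FPKM divides a gene's fragments by transcript length and library total, so the ratio of a deposited count to its FPKM gives an implied length for each gene in each kidney. It is the length used in quantification only if both values come from 1 tool, which the sources used here do not state. After scaling so that the median gene had equal lengths in all libraries, 6 of the 10 markers, *Lcn2*, *Clu*, *Krt8*, *Krt18*, *Krt19* and *Krt20*, had a length that varied by less than 0.05% between kidneys, and *Sox9* varied by 0.13%. *Havcr1* varied by 3.61% and *Vim* by 5.21%. *Cd44*, whose variable exons are spliced into long and short forms, varied by 14.9%, with 3409, 2981 and 3293 bases in the *Ptpn6*+/mev kidneys and 3082, 3392 and 3424 in the wild-type kidneys, in replicate order. The kidneys overlapped between genotypes, and the shortest length was in *Ptpn6*+/mev replicate 2, which had the highest *Cd44* level. The 7266 genes with at least 200 counts in every library had a median spread of 1.42%, and 16.1% of them had a spread at least as large. *Cd44* itself was not among these genes, since it had 124 counts in wild-type replicate 2. GENCODE M21 lists 9 transcripts for *Cd44*.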
